A study of Mus musculus with 8 samples.

Results

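AP-1 is a family of transcription factors that bind DNA as pairs of basic leucine zipper proteins. Its 10 genes described here were taken by name (Fos, Fosb, Fosl1, Fosl2, Jun, Junb, Jund, Atf3, Batf and Maff) from a table of 54134 mouse genes. All 10 were among the 14985 genes tested, which are those with at least 1 TPM (reads per gene length, brought to an equal total in all libraries) in at least 2 libraries. The cells were wild-type mouse bone marrow adipocytes, grown in culture from bone marrow stem cells by adipogenic differentiation for 14 days, which all groups share. GC+GW9662 cells (n = 3 libraries) then received 1e-06 M dexamethasone (DEX), a synthetic glucocorticoid, and GW9662, which blocks the nuclear receptor PPARγ of fat cells, for 24 hours. GC cells (n = 3) received the same DEX alone for 24 hours, and Control cells (n = 2) were differentiated only. The GW9662 dose and any vehicle in Control are not given in the sources used here.

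Jun proteins pair with each other or with Fos, ATF, BATF or Maf proteins, and the pair decides which DNA sites are bound and whether a gene is switched on or damped. Many of these genes are immediate early genes, which kinase cascades switch on quickly and whose short-lived mRNAs then fade. The glucocorticoid receptor is known to restrain AP-1 by contact between the proteins. In mice, raised Fra-1 (the protein of Fosl1) or a raised short splice form of FosB drives bone formation. The per-gene values used here do not separate splice forms.

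Promoters are shown for Fos, Fosb, Jun and Atf3, some of the genes highest in the GC libraries, and for Fosl2, which was lowest there. Each is the RefSeq window on build GRCm38.p6 from 250 bases before to 50 bases after a transcript start that RefSeq gives, printed 5′ to 3′ on the gene's own strand. Capitals mark the motif letters found by a search of both strands: the cyclic AMP response element core TGACG (on the opposite strand its letters appear as CGTCA), the variant AP-1 site TGACATCA, the amino acid response core TGATGCAA (read here as TTGCATCA) and the TATA box TATAAA.
Fos, chr12:85473640-85473939, plus strand: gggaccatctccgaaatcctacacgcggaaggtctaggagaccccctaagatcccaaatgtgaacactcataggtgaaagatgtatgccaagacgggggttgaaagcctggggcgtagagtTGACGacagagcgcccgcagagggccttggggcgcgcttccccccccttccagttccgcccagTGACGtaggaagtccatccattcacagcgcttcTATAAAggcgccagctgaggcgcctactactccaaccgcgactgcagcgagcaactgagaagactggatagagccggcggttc
Fosb, chr7:19309996-19310295, minus strand: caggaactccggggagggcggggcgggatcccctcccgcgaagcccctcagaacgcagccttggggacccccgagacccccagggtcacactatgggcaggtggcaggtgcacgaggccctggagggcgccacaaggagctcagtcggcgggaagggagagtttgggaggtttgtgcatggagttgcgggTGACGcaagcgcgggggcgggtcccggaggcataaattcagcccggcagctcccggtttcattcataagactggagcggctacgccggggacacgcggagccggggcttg
Jun, chr4:95052173-95052472, minus strand: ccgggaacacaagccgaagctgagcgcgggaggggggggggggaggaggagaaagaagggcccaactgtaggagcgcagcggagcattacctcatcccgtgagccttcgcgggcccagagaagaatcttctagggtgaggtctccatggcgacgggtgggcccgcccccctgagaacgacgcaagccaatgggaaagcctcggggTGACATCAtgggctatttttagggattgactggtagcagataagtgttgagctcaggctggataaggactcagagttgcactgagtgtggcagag
Atf3, chr1:191183284-191183583, minus strand: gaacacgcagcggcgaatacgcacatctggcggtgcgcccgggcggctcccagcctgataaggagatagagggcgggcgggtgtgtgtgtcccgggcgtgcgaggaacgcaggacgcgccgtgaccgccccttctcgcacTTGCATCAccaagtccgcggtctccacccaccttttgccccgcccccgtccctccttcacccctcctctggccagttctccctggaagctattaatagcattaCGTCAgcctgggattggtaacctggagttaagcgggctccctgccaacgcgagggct
Fosl2, chr5:32136222-32136521, plus strand: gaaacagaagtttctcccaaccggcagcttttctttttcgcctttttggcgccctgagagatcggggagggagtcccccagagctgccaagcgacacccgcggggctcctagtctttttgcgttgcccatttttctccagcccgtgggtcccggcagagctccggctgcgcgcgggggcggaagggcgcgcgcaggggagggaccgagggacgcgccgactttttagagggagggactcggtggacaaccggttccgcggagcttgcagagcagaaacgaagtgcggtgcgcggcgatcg
For Fos and Jun that start is also the deposited gene start, and for Fosb it lies 6 bases downstream of it. For Fosl2 it lies 671 bases and for Atf3 34706 bases downstream, so these 2 windows belong to transcripts that begin inside the deposited gene. The Fos window held TGACG starting 129 and 66 bases before the RefSeq start and TATAAA starting 33 bases before it. TGACG stood 60 bases before that of Fosb, TGACATCA 45 bases before that of Jun, and TTGCATCA 110 bases before that of the inner Atf3 transcript, with CGTCA at 7. None of these letters was in the Fosl2 window, nor in that of Jund, which was higher in GC than in Control. Among the other windows not printed, Junb held TGACG and TATAAA, and Batf TGACG. The Maff window at the deposited gene start held none of these letters. The Maff window whose start lies 899 bases downstream held the full cyclic AMP response element TGACGTCA, 29 bases before that start, which no other AP-1 window held. The Maff window 1781 bases downstream held CGTCA and TGACATCA. Of 32851 promoters of this length, 20.8% held TGACG, 1.79% the full TGACGTCA, 3.62% TGACATCA, 0.895% TGATGCAA and 13.6% TATAAA on either strand. The classical AP-1 site TGANTCA, in 7.81% of all promoters, and the CArG box of serum response factor, in 1.63%, were in none of the 11 RefSeq windows found for 9 of the 10 genes. The Jund window lies upstream of the deposited gene and does not reach it. Neither other starts of these genes nor bases outside the windows were searched, so sites further upstream would be missed. The match is one of letters and says nothing about binding in these cells.

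Across the whole table, libraries of 1 group correlated at 0.947 or more and libraries of different groups at 0.906 or less. The deposited values step in whole reads, which placed 15078678 to 25060168 reads per library on the genes whose length could be matched. Those genes carried 91.6% to 91.9% of TPM in GC+GW9662, 78.8% to 79.3% in GC and 91.9% to 92.0% in Control, so depth is a lower estimate and most incomplete in GC. The label GC went against 4 of 5 genes listed here as known to be induced by glucocorticoids. Fkbp5, which encodes a chaperone of the receptor, had 104, 78.8 and 104 TPM in GC+GW9662, 32.5, 80.3 and 62.8 TPM in GC, and 463 and 429 TPM in Control. Tsc22d3, the glucocorticoid-induced leucine zipper gene, averaged 429 ± 27.2 TPM in GC+GW9662, 59.6 ± 7.70 TPM in GC and 557 ± 20.98 TPM in Control (SD). Both were lower in the libraries labelled GC than in those labelled Control (log2 -3.00 ± 0.33, adjusted p = 0.00014, and -3.21 ± 0.13, adjusted p = 8.7e-07, by limma). Of 5 such genes 4 fell in this comparison, among them Zbtb16 (4.11 ± 0.358 TPM in GC+GW9662, 0.370 ± 0.295 TPM in GC and 17.1 ± 0.172 TPM in Control). The other did not pass, and glucocorticoid-induced genes outside these 5 were not part of the check. Dusp1, often counted among such genes but listed here with the kinase phosphatases, went the other way. It averaged 708 ± 45.6 TPM in GC and 186 ± 0.436 TPM in Control (1.92 ± 0.09, adjusted p = 2e-06 by limma). Every direction below therefore rests on the labels as given. Whether the adipogenic medium itself held a glucocorticoid, which would bear on what GC against Control compares, is not stated in the sources used here. Whether a group's libraries are separate cultures is not stated, so the p-values cover no more than the spread among these 8 samples.

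Cell type markers differed between the groups as well. The 10 adipocyte markers summed to 1298 to 1451 TPM in GC+GW9662, 320.2 to 339 TPM in GC and 1434 to 1453 TPM in Control, with Lep at 0 throughout. Most of the GC sum was Cebpa, at 268, 302 and 290.2 TPM there, which did not pass against Control, while Adipoq averaged 251 ± 8.02 TPM in GC+GW9662, 3.71 ± 1.23 TPM in GC and 170.3 ± 4.499 TPM in Control. Against Control, 7 of the 8 adipocyte markers tested fell in GC. The summed level of 10 macrophage markers was 24841 to 28886 TPM in GC+GW9662, 9938 to 10432 TPM in GC and 31397 to 32317 TPM in Control, above that of the adipocyte markers in every library. In GC it was mostly Lyz2 (6136 ± 180.4 TPM) and the lysosomal gene Cd68 (2651 ± 403 TPM), the 1 macrophage marker that was higher in GC than in Control. Another 8 of the 10 fell, such as C1qa, with 9986 ± 220.4 TPM in GC+GW9662, 289 ± 55.3 TPM in GC and 7942 ± 21.2 TPM in Control. The 7 markers of stroma and osteoblasts summed to 3390.2 to 3515 TPM in GC+GW9662, 89.9 to 121 TPM in GC and 5886 to 6147 TPM in Control. Neutrophil markers, almost all S100a8, summed to 71.1 to 82.4 TPM in GC+GW9662, 249 to 549 TPM in GC and 20.004 to 26.04 TPM in Control. In bulk RNA, fewer cells of a type and less RNA per cell cannot be told apart, and the part of these markers in the AP-1 values was not tested.

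The libraries labelled GC held more mRNA of 8 of the 10 AP-1 genes than Control: Fos, Fosb, Fosl1, Jun, Junb, Jund, Atf3 and Maff. Fosl2 was the 1 gene that was lower, and Batf did not pass. Over all genes tested, 16.2% rose and 39.1% fell in this comparison, and the median difference was -0.38 on the log2(TPM + 1) scale, against a median of 1.47 over the 10 genes. The low median of all genes depends on scaling. Of all calls in GC against Control, 29.3% were rises on the deposited TPM, and 50.3% after median-ratio scaling, 51.7% after quantile normalization, 51.6% with the length trend removed and 42.6% on recovered reads. With GW9662 added, all 10 genes differed from GC: Fos, Fosb, Fosl1, Jun, Junb, Jund, Atf3 and Maff were lower and Fosl2 and Batf higher, where 28.3% of all genes rose and 33.5% fell. The call for Batf rested on few reads and passed in only 9 of 21 alternative settings. The median was -2.05 over the 10 genes and -0.11 over all genes. Against Control, GC+GW9662 had 1 higher gene, Fosb, and 7 lower genes, with Jund and Batf not passing. Over all genes tested, 14.1% rose and 48.6% fell in that comparison, and the medians were -0.43 for the 10 genes and -0.49 for all genes. Set against the median of all genes, the 8 differences in GC against Control ran from 1.25 (Fos) to 3.59 (Fosb), with Fosl2 at -1.23. In GC+GW9662 against GC they ran from -3.94 (Fosl1) to -1.59 (Jund), with Fosl2 at 0.84. In GC+GW9662 against Control, Jun (-1.25), Fosl1 (-0.94), Fos (-0.50) and Fosl2 (-0.39) lay below that median and Fosb (1.46) above it, while Maff (0.01), Junb (0.11), Atf3 (0.22) and Jund (0.45) were close to it or above it. The first and second comparison share the GC libraries and the others share Control or GC+GW9662, so the 3 are not independent.

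**Figure D1:**
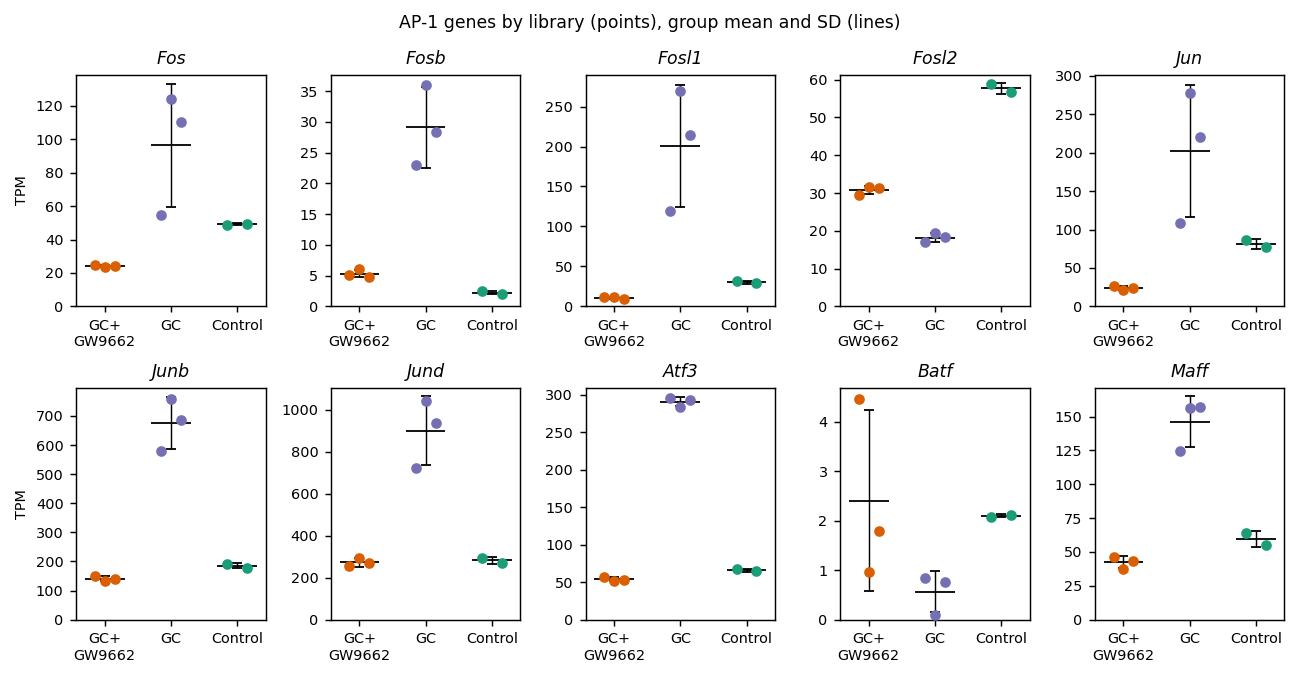
Level of each AP-1 gene in TPM (vertical axes, each from 0) in the 3 GC+GW9662, 3 GC and 2 Control libraries; points are libraries and lines give the group mean and SD. For 8 genes the GC libraries lay above all others, while Fosl2 was lowest in GC and highest in Control. The share of all tested genes whose libraries separate in this way was not counted.

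Fos (chr12:85473890-85477273, plus strand, on the annotation of GENCODE M21 and build GRCm38, as for all genes here) encodes the founding partner of Jun. Its levels were 24.7, 23.7 and 24.1 TPM in GC+GW9662, 54.4, 124 and 110 TPM in GC, and 48.9 and 49.6 TPM in Control. The groups did not overlap, but GC replicate 1 lay close to Control and far below the other GC libraries. Fos was higher in GC than in Control by 0.87 ± 0.31 (log2, SE; adjusted p = 0.042 by limma). That call passed in only 10 of 22 alternative settings, and it was lost on leaving out any single library other than GC replicate 1 (adjusted p up to 0.15). GC+GW9662 was lower than GC by a wider margin, at -1.87 ± 0.28 (adjusted p = 0.00069 by limma), and lower than Control at -1.0 ± 0.31 (adjusted p = 0.022). The difference from Control did not pass under median-ratio scaling (-0.32), quantile normalization (-0.38) or on recovered reads (-0.50), nor without either Control library or GC+GW9662 replicate 2 (adjusted p of 0.090, 0.090 and 0.058).

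Fosb (chr7:19302696-19310051, minus strand) encodes a close relative of Fos whose short splice form is long-lived. It had 5.07, 6.00 and 4.85 TPM in GC+GW9662, 22.9, 36.0 and 28.4 TPM in GC, and 2.42 and 2.02 TPM in Control. All 3 groups were apart, with GC highest and Control lowest, which no other AP-1 gene showed. The mean in GC was 13.1 times that in Control, the largest ratio among the 10 genes in that comparison, and the difference was 3.20 ± 0.22 (adjusted p = 1.2e-05 by limma). GC+GW9662 was lower than GC by -2.24 ± 0.20 (adjusted p = 4.2e-05) and higher than Control by 0.97 ± 0.22 (adjusted p = 0.0062 by limma). Over the alternatives these differences ranged from 2.22 to 4.08 in GC against Control and from 0.51 to 2.09 in GC+GW9662 against Control. The last call was lost without Control replicate 2 (0.88, adjusted p = 0.050). The Control levels rested on 97 and 87 reads.

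Fosl1 (chr19:5447703-5455945, plus strand, the 1 AP-1 gene whose deposited start and end differ from M21) encodes Fra-1, a Fos relative without the activating tail of Fos. Its levels were 11.6, 11.5 and 8.68 TPM in GC+GW9662, 119, 269 and 214 TPM in GC, and 31.5 and 29.1 TPM in Control. The groups did not overlap, and GC replicate 1 was again the lowest of its group. GC exceeded Control by 2.61 ± 0.31 (adjusted p = 0.00021 by limma). The step to GC+GW9662 was the widest of any AP-1 gene, -4.05 ± 0.28 (adjusted p = 1.2e-05), with a GC mean 18.9 times that of GC+GW9662. GC+GW9662 was also below Control, at -1.44 ± 0.31 (adjusted p = 0.0052 by limma), a call lost after quantile normalization (-0.60, adjusted p = 0.13). Exons of Ccdc85b on the opposite strand cover 57.2% of the Fosl1 exon bases, and the libraries carry no strand, so their shared reads cannot be told apart. Ccdc85b itself had 206, 194 and 165 TPM in GC+GW9662, 91.2, 93.6 and 94.1 TPM in GC, and 141 and 144 TPM in Control, an order of groups opposite to that of Fosl1.

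Fosl2 (chr5:32135801-32157842, plus strand) encodes Fra-2, the other Fos relative that lacks the activating tail. It stood at 29.6, 31.6 and 31.4 TPM in GC+GW9662, 16.9, 19.3 and 18.3 TPM in GC, and 58.8 and 56.7 TPM in Control. The groups were apart with GC lowest, and libraries within a group differed little. Fosl2 was lower in GC than in Control (-1.61 ± 0.12, adjusted p = 1.9e-05 by limma) and higher in GC+GW9662 than in GC (0.73 ± 0.11, adjusted p = 0.00072). It remained lower in GC+GW9662 than in Control (-0.88 ± 0.12, adjusted p = 0.0017 by limma). With the trend over gene length removed, the difference between GC and Control shrank to -0.66 (adjusted p = 0.021 by limma), and the last difference turned to 0.60 (adjusted p = 0.038). It did not pass after median-ratio scaling (-0.21) or quantile normalization (-0.35).

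The make-up of the Fos family differed between groups along with its total. The 4 genes summed to 70.9 ± 1.87 TPM in GC+GW9662, 344 ± 120.0 TPM in GC and 139 ± 3.02 TPM in Control (SD). Fosl2 made up 43.5% ± 1.89 of that sum in GC+GW9662, 5.72% ± 1.93 in GC and 41.4% ± 0.186 in Control. Fosl1 made up 14.9% ± 2.06 in GC+GW9662, 57.8% ± 2.07 in GC and 21.7% ± 0.775 in Control. Thus Fosl1 was the leading Fos family mRNA in all 3 GC libraries and Fosl2 in all 5 others. The Fos share differed less, at 34.1% ± 1.33 in GC+GW9662, 27.6% ± 2.11 in GC and 35.3% ± 1.13 in Control. Fosb held 7.47% ± 0.671 in GC+GW9662 and 8.80% ± 1.69 in GC, against 1.59% ± 0.167 in Control. These shares are given without a test. Fosl1 exons overlap those of Ccdc85b and the length of Fosl1 could not be matched, so its level relative to other genes is less sure. The shares were not computed anew with the length trend removed, which shrank the Fosl2 difference between GC and Control.

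**Figure D2:**
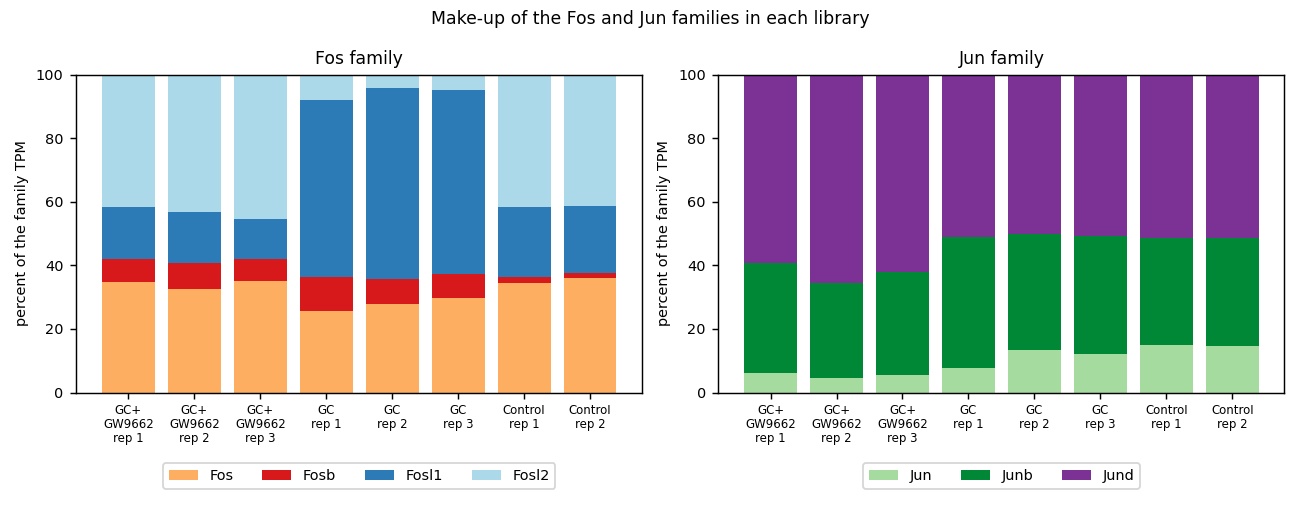
Percent of the summed TPM (vertical axes) of the Fos family (left) and of the Jun family (right) held by each gene, with 1 bar per library. Fosl1 fills 55.8% to 60.0% of the Fos family bars in GC and 12.6% to 22.3% elsewhere, while Jund is the largest share of the Jun family in every library.

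Jun (chr4:95049034-95052222, minus strand, a gene of 1 exon) encodes the strongest activator of the Jun proteins. It had 26.6, 20.9 and 23.6 TPM in GC+GW9662, 109, 277 and 221 TPM in GC, and 86.2 and 76.8 TPM in Control. No groups overlapped, although GC replicate 1 lay nearer to Control than to the other GC libraries. Jun was higher in GC than in Control by 1.20 ± 0.34 (adjusted p = 0.018 by limma). This call passed in 16 of 22 alternatives and was lost without Control replicate 1 (adjusted p = 0.065), Control replicate 2 (0.096) or GC replicate 3 (0.055). Jun was lower in GC+GW9662 than in GC by -2.94 ± 0.31 (adjusted p = 0.00011) and than in Control by -1.74 ± 0.34 (adjusted p = 0.0038 by limma), and both calls passed in all 22 alternatives, at -1.07 for the last under median-ratio scaling.

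Junb (chr8:84974484-84978718, minus strand) encodes a Jun protein that often opposes Jun. Its levels were 150.0, 134 and 139.7 TPM in GC+GW9662, 581, 759.8 and 685 TPM in GC, and 191 and 179 TPM in Control. The GC libraries stood far above both other groups, which lay close together without overlap. Junb was higher in GC than in Control by 1.86 ± 0.13 (adjusted p = 1.2e-05 by limma) and lower in GC+GW9662 than in GC by -2.24 ± 0.12 (adjusted p = 2.6e-06). Between GC+GW9662 and Control the difference was -0.38 ± 0.13 (adjusted p = 0.030 by limma), but 0.30 (adjusted p = 0.037) after median-ratio scaling and 0.14 on recovered reads. The call also ended on leaving out GC+GW9662 replicate 2 or 3, GC replicate 3 or any Control library (adjusted p of 0.053 to 0.17). The antioxidant enzyme gene Prdx2 on the opposite strand shares 7.5% of the Junb exon bases.

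Jund (chr8:70698949-70700616, plus strand, 1 exon) encodes the Jun protein present in most resting cells. It had 256, 296 and 268 TPM in GC+GW9662, 723, 1043 and 938 TPM in GC, and 294 and 270.4 TPM in Control. GC was apart from both other groups, and those overlapped. Jund was higher in GC than in Control by 1.66 ± 0.16 (adjusted p = 6.4e-05 by limma) and lower in GC+GW9662 than in GC by -1.70 ± 0.14 (adjusted p = 3.1e-05). GC+GW9662 and Control differed by -0.05 ± 0.16 (adjusted p = 0.81 by limma), which became a passing rise after median-ratio scaling (0.64) and on recovered reads (0.48). Its antisense neighbour Gm11175, which covers 52.6% of the Jund exon bases, had 6.60 to 14.2 TPM in GC+GW9662, 15.7 to 25.4 TPM in GC, and 10.7 to 14.9 TPM in Control.

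The 3 Jun genes summed to 439 ± 11.1 TPM in GC+GW9662, 1779 ± 339 TPM in GC and 549 ± 31.9 TPM in Control (SD), above the Fos family in every library. Jun held 5.42% ± 0.764 of the sum in GC+GW9662, 11.01% ± 2.94 in GC and 14.8% ± 0.344 in Control. Jund held 62.3% ± 3.22 in GC+GW9662, 50.7% ± 0.540 in GC and 51.5% ± 0.0992 in Control. The Junb share was 32.3% ± 2.45 in GC+GW9662, 38.3% ± 2.49 in GC and 33.7% ± 0.443 in Control. So the family in GC+GW9662 held the smallest share of Jun and the largest of Jund, again as a description without a test.

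Atf3 (chr1:191170296-191218039, minus strand) encodes a stress-induced factor that pairs with Jun and can repress as a pair of its own. Its levels were 57.3, 51.9 and 52.8 TPM in GC+GW9662, 296, 284 and 293 TPM in GC, and 66.9 and 64.3 TPM in Control. The GC libraries agreed closely with each other, GC replicate 1 included, and no groups overlapped. Atf3 was higher in GC than in Control by 2.13 ± 0.10 (adjusted p = 1.6e-06 by limma) and lower in GC+GW9662 than in GC by -2.41 ± 0.09 (adjusted p = 5.4e-07), the smallest adjusted p among the 10 genes in both comparisons. Against Control, GC+GW9662 was lower by -0.28 ± 0.10 (adjusted p = 0.037 by limma). That small difference turned to 0.40 (adjusted p = 0.043) after median-ratio scaling, 0.13 after quantile normalization and 0.24 on recovered reads, and the call ended on leaving out GC+GW9662 replicate 2 or 3, GC replicate 3 or any Control library (adjusted p of 0.071 to 0.20).

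Maff (chr15:79346621-79359076, plus strand) encodes a small Maf protein, which binds DNA but has no activating domain of its own. It had 46.4, 37.6 and 43.2 TPM in GC+GW9662, 124, 157 and 157 TPM in GC, and 63.8 and 55.3 TPM in Control. The groups did not overlap and GC was the highest. Maff was higher in GC than in Control by 1.27 ± 0.15 (adjusted p = 0.00022 by limma) and lower in GC+GW9662 than in GC by -1.76 ± 0.14 (adjusted p = 2.2e-05). It was lower in GC+GW9662 than in Control by -0.48 ± 0.15 (adjusted p = 0.025 by limma), which became 0.20 after median-ratio scaling and 0.04 on recovered reads, both without passing. The call was lost without either Control library or GC+GW9662 replicate 2 or 3 (adjusted p of 0.054 to 0.17).

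Batf (chr12:85686669-85709087, plus strand), a gene known from leukocytes whose protein pairs with Jun, was barely detected. It had 4.46, 0.958 and 1.80 TPM in GC+GW9662, 0.839, 0.0865 and 0.759 TPM in GC, and 2.08 and 2.12 TPM in Control. These levels rested on 44, 10 and 19 reads in GC+GW9662, 8, 1 and 9 reads in GC, and 21 and 23 reads in Control. GC lay below the other groups, which overlapped. The difference between GC and Control was -1.03 ± 0.42 (adjusted p = 0.072 by limma). GC+GW9662 was higher than GC by 1.03 ± 0.38 (adjusted p = 0.044), a call that passed in only 9 of 21 alternatives and was lost without GC+GW9662 replicate 1 or 3, GC replicate 2 or 3, or either Control library. GC+GW9662 and Control differed by 0.00 ± 0.42. At this depth no order of the groups can be given for Batf.

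**Figure D3:**
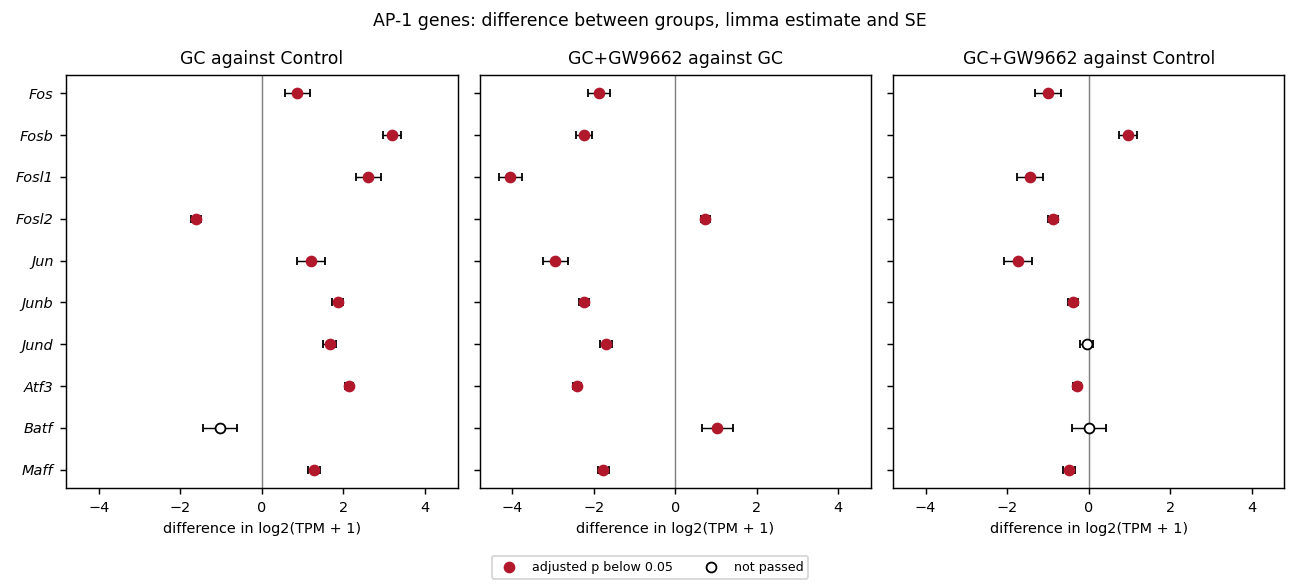
Difference between groups on the log2(TPM + 1) scale (horizontal axes), as the limma estimate with its SE, for each AP-1 gene in the 3 comparisons; filled points passed an adjusted p of 0.05. In GC+GW9662 against GC the values run from -4.05 for Fosl1 to 1.03 for Batf, whereas in GC+GW9662 against Control they run from -1.74 for Jun to 0.97 for Fosb.

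The order of the levels, which TPM allows because it is per length, began with Jund and Junb in every group. In GC+GW9662 it went on with Atf3, Maff, Fosl2, Fos and Jun, which overlapped, Fosl1, Fosb and Batf. In GC, Jund and Junb overlapped, followed by Atf3, then Jun, Fosl1, Maff and Fos as a run of overlapping neighbours, then Fosb, Fosl2 and Batf. In Control these 2 were followed by Jun, Atf3, Maff and Fosl2, which overlapped, Fos, Fosl1, and Fosb with Batf, which also overlapped. Fosl2 thus ranked above Fosb in Control and GC+GW9662 and below it in GC. The place of Fosl1 in these orders carries the limits of overlap and length given above.

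GC replicate 1 had the lowest level of its group for Fos, Fosb, Fosl1, Fosl2, Jun, Junb, Jund and Maff, but not for Atf3 or Batf. Over the whole table it correlated at 0.947 and 0.966 with the other GC libraries, which correlated at 0.989 with each other. The share of all genes that were lowest in GC replicate 1 was not counted. The genes with the most similar profile over the 8 libraries, by root mean square difference of centred log2(TPM + 1), were Crtc2 for Fos (0.08), Kpna4 for Jun (0.04), Psmd7 for Maff (0.06) and Csnk2a1 for Fosl2 (0.07). Slc7a5 was nearest to Atf3 (0.09), Abhd17b to Junb (0.10), Osgin1 to Fosl1 (0.16), Lncpint to Fosb (0.24) and Fancf to Batf (0.25). The nearest gene to Jund was Mafg (0.12), another small Maf gene, with 48.3 ± 1.36 TPM in GC+GW9662, 169 ± 10.5 TPM in GC and 53.1 ± 3.49 TPM in Control.

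Among other partners of Jun and Fos in the leucine zipper class, Maf and Jdp2 were lower in GC. Of 6 tested, 3 fell in GC against Control, where 39.1% of all genes fell, and the others did not pass (median -0.63, where that of all genes was -0.38). Maf, a large Maf factor, averaged 30.7 ± 3.15 TPM in GC+GW9662, 3.54 ± 0.986 TPM in GC and 140 ± 1.69 TPM in Control, with a GC difference of -4.98 ± 0.20 (adjusted p = 8.9e-07 by limma). Jdp2, a repressor that pairs with Jun, averaged 64.6 ± 2.37 TPM in GC+GW9662, 21.5 ± 2.095 TPM in GC and 104 ± 3.32 TPM in Control (-2.23 ± 0.12, adjusted p = 3.6e-06 by limma). Both had their lowest level in GC, as Fosl2 did. Of 5 tested small Maf genes and partners, 2 rose in GC against Control, where 16.2% of all genes rose, and the others did not pass (median 0.40). These were Mafg and Mafk, and Mafk averaged 30.2 ± 1.20 TPM in GC+GW9662, 223 ± 32.7 TPM in GC and 45.8 ± 0.0868 TPM in Control (2.25 ± 0.14, adjusted p = 7.2e-06 by limma). All 5 were lower in GC+GW9662 than in GC, where 33.5% of all genes fell.

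The lists of kinases that activate AP-1 held called genes in shares near those of all genes in GC against Control (16.2% rose and 39.1% fell). In the JNK and p38 arm, which phosphorylates Jun and ATF proteins, 2 of 14 tested genes rose and 6 fell in GC against Control (median -0.60), and 3 rose and 7 fell in GC+GW9662 against GC (median -0.40; 28.3% and 33.5% of all genes). Map2k3, which activates p38, had 60.2 ± 10.5 TPM in GC+GW9662, 295 ± 60.8 TPM in GC and 101 ± 3.84 TPM in Control (GC against Control 1.51 ± 0.21, adjusted p = 0.00046 by limma), while Map3k5, which encodes the stress kinase ASK1, had 1.74 ± 0.308 TPM in GC+GW9662, 1.29 ± 0.848 TPM in GC and 10.5 ± 0.576 TPM in Control (-2.39 ± 0.32, adjusted p = 0.00037 by limma). In the ERK arm 3 of 15 rose and 5 fell in GC against Control (median -0.25; 16.2% and 39.1% of all genes). In GC+GW9662 against GC 3 rose and 9 fell (median -0.57; 28.3% and 33.5%), a larger share of falls than over all genes. Mapk3, which encodes ERK1, averaged 216 ± 16.7 TPM in GC+GW9662, 61.0 ± 2.59 TPM in GC and 246 ± 0.542 TPM in Control (-1.99 ± 0.10, adjusted p = 3.1e-06 by limma). Rps6ka1, a kinase downstream of ERK, followed the same order of groups, with a difference of -3.08 ± 0.21 in GC against Control (adjusted p = 1.0e-05 by limma). Of 12 genes for the SRF, TCF, MRTF, MEF2 and CREB factors that act on immediate early promoters, 6 fell and the others did not pass in GC against Control (median -0.83; 39.1% of all genes fell), with Mef2c at -3.48 ± 0.17 (adjusted p = 2.5e-06) and the SRF coactivator gene Mkl1 at -3.23 ± 0.34 (adjusted p = 0.00011 by limma). Of these factors 4 rose and 4 fell in GC+GW9662 against GC (28.3% and 33.5% of all genes). In GC+GW9662 against Control 11 fell (median -1.54), where 48.6% of all genes fell.

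Among the brakes on the same pathways, Dusp5 and Dusp6 differed in opposite directions. Of 14 genes for kinase phosphatases and Sprouty-type inhibitors, 5 rose and 4 fell in GC against Control (median 0.15; 16.2% and 39.1% of all genes), while 3 rose and 9 fell in GC+GW9662 against GC (28.3% and 33.5%). Dusp5, a nuclear phosphatase of ERK, averaged 14.3 ± 2.52 TPM in GC+GW9662, 155 ± 15.7 TPM in GC and 12.3 ± 0.537 TPM in Control (3.55 ± 0.17, adjusted p = 2.0e-06 by limma). Dusp6, its cytoplasmic relative, averaged 89.9 ± 4.32 TPM in GC+GW9662, 19.7 ± 2.20 TPM in GC and 128 ± 1.12 TPM in Control (-2.65 ± 0.12, adjusted p = 1.8e-06 by limma). Among 6 genes that act on AU-rich elements, which mark many immediate early mRNAs for decay, 2 rose and 4 fell in GC against Control (median -1.13; 16.2% and 39.1% of all genes). The 2 were Zfp36, a decay factor (1.53 ± 0.27, adjusted p = 0.0018), and Elavl1, a stabilizing factor (1.13 ± 0.13, adjusted p = 0.00018 by limma). The decay factor gene Zfp36l1 fell by 2.43 on the log2 scale in GC, to 15.1 ± 4.71 TPM against 83.1 ± 0.955 TPM in Control (adjusted p = 6.7e-05 by limma).

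Genes known from other cells as AP-1 targets split into opposite directions. Of 26 tested, 12 rose and 11 fell in GC against Control (16.2% and 39.1% of all genes), 6 rose and 13 fell in GC+GW9662 against GC (28.3% and 33.5%), and 2 rose and 16 fell in GC+GW9662 against Control (14.1% and 48.6%). The list medians in these comparisons were 0.13, -0.63 and -1.17. The protease gene Mmp3 had 9.25, 7.42 and 8.53 TPM in GC+GW9662, 722, 819.8 and 793 TPM in GC, and 17.5 and 18.1 TPM in Control. Its GC libraries stood far above all others (5.37 ± 0.13 against Control, adjusted p = 1.3e-07, and -6.38 ± 0.11 for GC+GW9662 against GC, adjusted p = 4.7e-08, by limma). Mmp10 was listed at 0 in all 3 GC+GW9662 libraries, at 40.1, 44.5 and 40.4 TPM in GC, and at 0.110 and 0.255 TPM in Control. The collagenase gene Mmp13 and the cyclin gene Ccnd1, also textbook AP-1 targets, were lower in GC. Mmp13 averaged 22.1 ± 4.76 TPM in GC+GW9662, 19.8 ± 4.75 TPM in GC and 69.0 ± 6.60 TPM in Control (-1.77 ± 0.25 in GC against Control, adjusted p = 0.00051 by limma). Ccnd1 averaged 117 ± 12.2 TPM in GC+GW9662, 19.6 ± 5.15 TPM in GC and 318 ± 1.28 TPM in Control (-3.98 ± 0.21, adjusted p = 2.9e-06 by limma).

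Immediate early genes outside AP-1 included both Gadd45b, higher in GC, and Egr2, lower there. Of 18 tested, 8 rose and 7 fell in GC against Control (median 0.41; 16.2% and 39.1% of all genes), so that the share that fell was near that of all genes. Against GC, 3 rose and 9 fell in GC+GW9662 (median -0.45; 28.3% and 33.5%). In GC+GW9662 against Control 9 fell, a share near the 48.6% of all genes, and the others did not pass (median -0.62). Gadd45b, a stress gene of the growth arrest family, averaged 64.8 ± 5.65 TPM in GC+GW9662, 1194 ± 74.1 TPM in GC and 54.9 ± 1.43 TPM in Control (4.42 ± 0.11, adjusted p = 1.5e-07 by limma). Ier5 averaged 45.0 ± 5.70 TPM in GC+GW9662, 522 ± 66.7 TPM in GC and 63.6 ± 1.46 TPM in Control (3.01 ± 0.15, adjusted p = 2.4e-06 by limma). Of the zinc finger genes of the Egr family, Egr1 had 14.7 ± 1.36 TPM in GC+GW9662, 151 ± 58.2 TPM in GC and 34.3 ± 0.548 TPM in Control, and rose in GC (2.02 ± 0.31, adjusted p = 0.00080 by limma). Egr2 had 4.55 ± 0.890 TPM in GC+GW9662, 1.14 ± 0.471 TPM in GC and 8.29 ± 0.0225 TPM in Control, and fell (-2.14 ± 0.24, adjusted p = 0.00016 by limma).

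**Figure D4:**
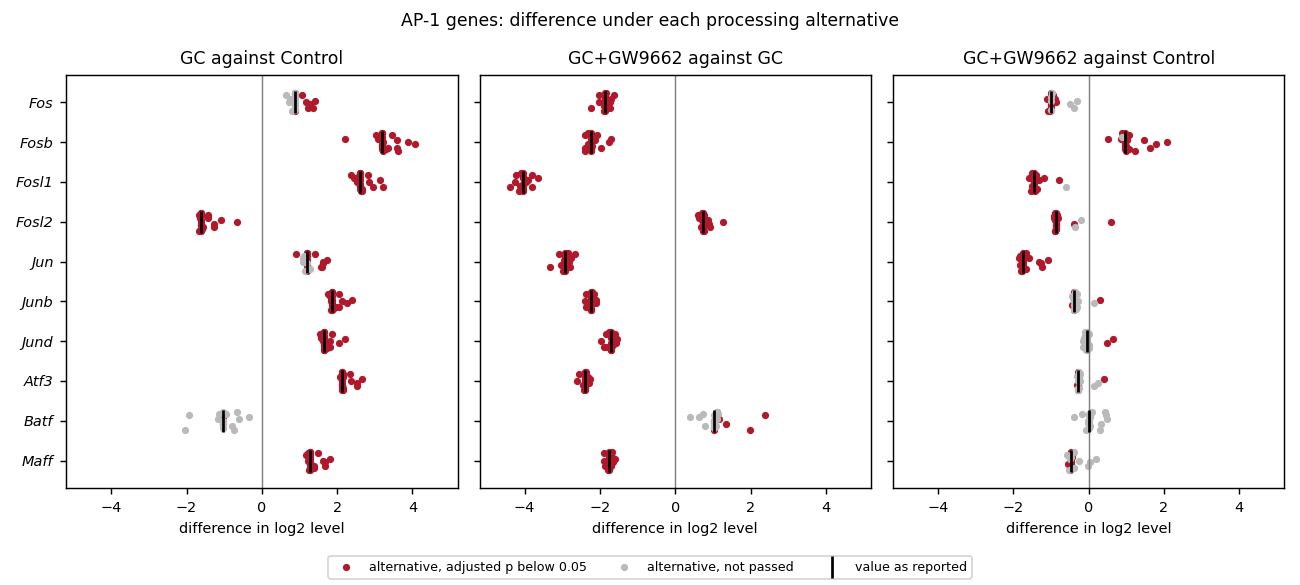
Difference in log2 level of each AP-1 gene (horizontal axes) under 22 processing alternatives (21 for Fosl1 and Batf); red points passed an adjusted p of 0.05, grey points did not, and black ticks are the values as reported. In GC+GW9662 against GC all alternatives passed for every gene except Batf (9 of 21), while in GC+GW9662 against Control the points for Fosl2, Junb, Jund, Atf3, Batf and Maff lie on both sides of 0.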

How the data were processed

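RNA was sequenced from 8 libraries made with the Smart-Seq2 protocol, which keeps no strand, per the labels' protocols. The authors deposited TPM per gene in a single table. The submitters' processing notes name featureCounts, HISAT2 2.1.0 and fastp. Annotation, build and the order of these tools are not given in the sources used here, but 97.4% of genes have the start and end of GENCODE M21 (not Fosl1). The table's 54232 rows hold 54134 genes, with 27 date-like symbols repaired through their Ensembl IDs.

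Groups were taken from the sample titles. Control replicate 2 bears the bracketed label C3. Every gene that reached 1 TPM in 2 or more libraries was tested on log2(TPM + 1), a scale that understates the change of low genes, with limma 3.58.1 in R 4.3.3. One model with group means was fitted to all 8 libraries, with a variance prior that depends on mean level. Tests were two-sided, and p-values were adjusted by Benjamini-Hochberg over all 14985 genes in each of 3 comparisons, with a threshold of 0.05. The limma script was tested on simulated data. Group values are mean ± SD.

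At M21 transcript lengths 97.2% of 26777 genes above 0 came out as whole reads in all libraries (tolerance 0.02 reads), which gave the read numbers printed. PCR copies were not marked by molecular identifiers, so these reads speak to counting error only. The 9 AP-1 genes other than Fosl1, whose length could not be matched, had 87 or more reads in every library except for Batf. Recovered reads of 14395 genes were tested with limma voom, an alternative added after seeing the data. It called 7869 genes in GC against Control, 8994 in GC+GW9662 against GC and 8669 in GC+GW9662 against Control, where the TPM test called 8291, 9253 and 9398. Recovered reads were scaled to their own totals, which leave out more of the TPM in GC than in the other groups. Such scaling can raise the GC levels against the others.

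The AP-1 genes and all lists were chosen with earlier results of these data known. From each list the 2 genes with the smallest adjusted p in GC against Control and a group mean of at least 5 TPM were named, with Fkbp5 and Tsc22d3 as a check of the labels and, for each AP-1 gene, the nearest profile among genes of that level. The markers Cebpa, Adipoq, Lyz2, Cd68 and C1qa and the genes Dusp1, Zfp36, Mmp13, Ccnd1, Egr1, Egr2, Ccdc85b, Prdx2 and Gm11175 were named after their values were seen. Alternatives were quantile normalization, median-ratio scaling, removal of the length trend, totals without the mitochondrial and the top 20 genes (called rescaling below), pseudocounts of 0.1 and 5, filters of 0 and 5 TPM, a robust or a constant prior, fits to the compared groups alone, replicate blocks, and leaving out each library. Figures were drawn with matplotlib 3.10.9, and tables made with pandas 2.3.3 and numpy 2.4.6, in Python 3.11.15.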

Additional observations from a re-analysis of the deposited data

How the results depend on the processing

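In GC against Control and in GC+GW9662 against GC, no AP-1 gene changed direction under any of the 22 alternatives, and calls were lost or gained only for Fos, Jun and Batf. In GC against Control, the higher AP-1 genes numbered 6 with the compared groups alone or either replicate block. They numbered 7 with no filter, a constant prior or on recovered reads, and 6 to 8 on leaving out 1 GC or GC+GW9662 library. The lower ones numbered 2 with the compared groups alone and 1 to 2 on leaving out 1 GC or GC+GW9662 library. In GC+GW9662 against GC, 1 was higher with a pseudocount of 5, no filter, a filter of 5 TPM, rescaling, the length trend removed or the compared groups alone, and 1 to 2 on leaving out 1 library. GC+GW9662 against Control depended most on scaling. There the higher genes numbered 4 under median-ratio scaling, 2 with the length trend removed, 2 on recovered reads and 0 to 1 on leaving out 1 library. The lower genes numbered 2 under median-ratio scaling, 1 under quantile normalization, 3 with the length trend removed, 2 on recovered reads and 3 to 7 on leaving out 1 library. Differences that turned in that comparison were Fosl2 with the length trend removed (0.60), and Junb (0.30), Jund (0.64), Atf3 (0.40) and Maff (0.20) under median-ratio scaling. On recovered reads Junb (0.14), Jund (0.48), Atf3 (0.24) and Maff (0.04) turned, as did Atf3 under quantile normalization (0.13) and Jund on rescaling (0.01). Batf turned with a pseudocount of 0.1 (-0.07), the length trend removed (-0.19) and the title number block (-0.01). On leaving out 1 library Jund ranged from -0.11 to 0.01 and Batf from -0.40 to 0.34. The cause was not tested. Over all genes, leaving out 1 library gave 5513 to 9233 calls in GC against Control and 5598 to 10329 in GC+GW9662 against Control, lowest without Control replicate 1. The lone Control library is then assumed to vary like the other groups. Rises were 22.5% of all calls in GC+GW9662 against Control, 48.0% under median-ratio scaling, 48.7% under quantile normalization, 50.9% with the length trend removed and 40.5% on recovered reads.

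Deviations from the group mean of same-numbered GC+GW9662 and GC libraries correlated at -0.10, -0.12 and 0.08, and those of differently numbered ones at -0.10 to 0.14. Such deviations from 3 libraries per group cannot decide whether samples were paired, and Control was left out. With the title number or the bracketed number as a replicate block, 4 AP-1 genes were lower in GC+GW9662 than in Control, and Fos (0.80 and 0.76, adjusted p = 0.083 and 0.091 by limma) and Jun (1.14 and 1.10, adjusted p = 0.053 and 0.058 by limma) no longer passed in GC against Control. Depth limits Batf alone among the 9 genes with read estimates.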
